A study of Mus musculus with 12 samples.

Results

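The 10 genes described here are the 9 nuclear genes for subunits of mitochondrial Complex III (Uqcrc1, Uqcrc2, Uqcrfs1, Cyc1, Uqcrb, Uqcrq, Uqcrh, Uqcr10 and Uqcr11) and Cycs, the gene for somatic cytochrome c. They were chosen by symbol, out of 55180 annotated genes with a listed transcript, and all 10 were detected with a count of at least 10 in each of 6 RNA-seq libraries. The libraries came from mice numbered 678, 687, 688, 698, 700 and 703. The study compared male C57BL/6J mice that carry the Nestin-Cre transgene alone (Larp1 WT) with male mice that carry Nestin-Cre and the floxed Larp1 alleles (Nestin-Cre;Larp1-flox/flox, Larp1 KO), so the transgene is shared by all animals. The Nestin promoter drives Cre in neural progenitors, and cells of other lineages, such as microglia and vessels, keep Larp1. The labels list 12 cortex samples, 6 of each genotype, as 3 replicates in 2 parts. Age is not stated in what was read here. Nothing read here says which genotype a numbered mouse had, so no genotypes are compared and each library is given by its mouse number. The tissue of the files is taken from these labels.

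Complex III sits in the inner mitochondrial membrane, takes electrons from ubiquinol and passes them to cytochrome c, while protons move across the membrane. Cytochrome c then carries the electrons to Complex IV, and after release from mitochondria it can also start apoptosis through Apaf1. In neurons, whose ATP comes largely from oxidative phosphorylation, these genes are expressed in every cell, and only cytochrome b of the complex is encoded by the mitochondrial genome.

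The libraries held 34689262 to 44463362 expected counts. Cortical markers were high. Slc17a7, the vesicular glutamate transporter of cortical excitatory neurons, ran from 346.5 to 491.9 TPM (RSEM's length-corrected share of all transcripts, scaled to the same total in each library), Snap25 from 715.0 to 1004 TPM and Mbp of oligodendrocytes from 192.4 to 318.7 TPM, while the liver gene Alb was at most 0.03 TPM. Of the other marker genes of organs outside the brain, Myh6 was at most 0.13 TPM and Acta1 ran from 2.01 to 4.49 TPM. The choroid plexus genes Ttr and Folr1 ran from 0.25 to 2.13 and from 0.09 to 0.33 TPM. The blood gene Hbb-bs stood at 0.95 TPM in mouse 688, 1.92 in mouse 700 and 8.04 to 11.57 in the other libraries. TPM also moved as a whole between libraries. Nuclear protein-coding genes held 22.68% of TPM in mouse 700, the lowest share, and 28.83% in mouse 703, the highest. The median detected gene lay 0.19 above its middle value on the log2 scale in mouse 703 and -0.17 from it in mouse 700, so comparisons between libraries are also given in rescaled TPM, in which the nuclear protein-coding genes share a common total. There the shift was at most 0.03.

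By median level, 4 of the 5 small subunit genes were the most abundant of the family, and Uqcrb was not. Uqcr11 had the highest median at 124.3 TPM, followed by Uqcr10 at 118.3, Uqcrh at 108.3 and Uqcrq at 108.3. The core subunit gene Uqcrc1 came next at 71.2 TPM. The middle of the order was held by Cyc1 at 53.74, Uqcrb at 48.46 and Uqcrc2 at 48 TPM, and the lowest levels were those of Cycs at 35.71 and Uqcrfs1 at 33.89 TPM. Neighbours in this order mostly overlapped. Only Uqcrq and Uqcrc1, and Uqcrc2 and Cycs, had ranges that did not meet, and Uqcrc1 was also above Cyc1 in 6 of 6 libraries although their ranges touched. The summed level of the 9 Complex III genes was 809.6 TPM in mouse 678, 750.9 in mouse 687, 611.3 in mouse 688, 707.6 in mouse 698, 693.5 in mouse 700 and 737.3 in mouse 703. Mouse 678 was the highest and mouse 688 the lowest, 1.32-fold apart, against 1.24-fold after rescaling. The libraries between them changed order after rescaling. Mouse 703, at 2558, then lay close to mouse 688, at 2504, and mouse 700, at 3058, close to mouse 678, at 3105. In bulk tissue, fewer cells of a type and less RNA per cell cannot be told apart.

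**Figure D1:**
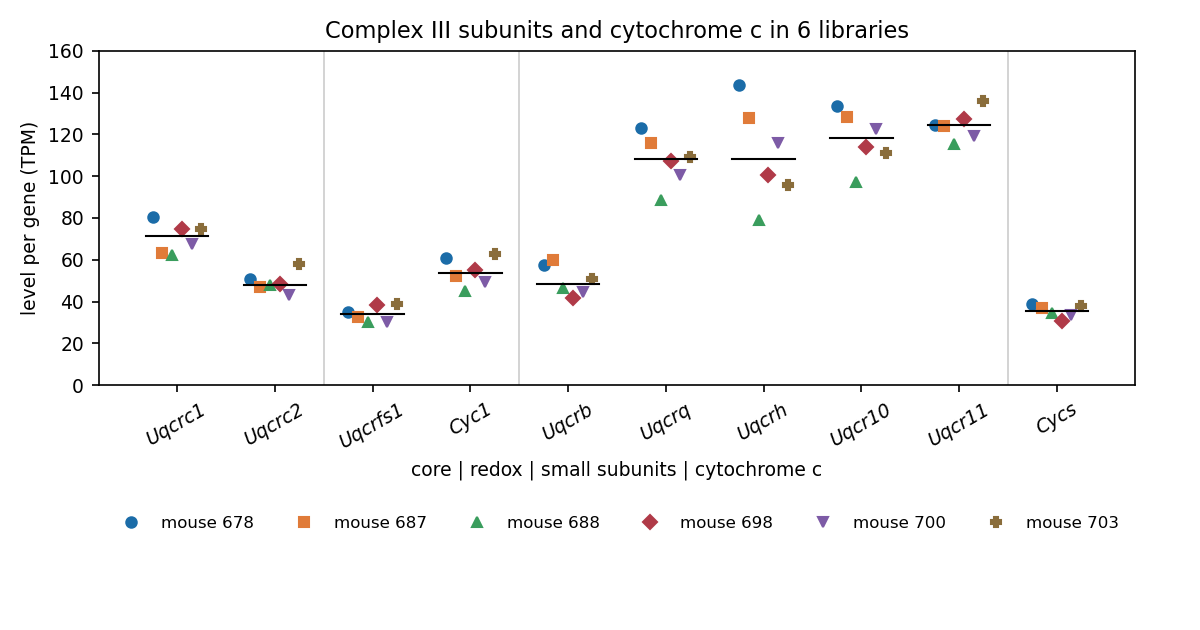
Level of each gene in TPM (linear axis from 0), with symbols for the 6 mice and a black line at the median, ordered as core, redox and small subunits of Complex III and cytochrome c. The medians of Uqcrq, Uqcrh, Uqcr10 and Uqcr11 lie above those of the other genes, and Uqcrh spreads from 78.99 TPM in mouse 688 to 143.7 TPM in mouse 678.

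Uqcrc1 and Uqcrc2 encode the large core proteins on the matrix side of the complex, relatives of the mitochondrial processing peptidase. Uqcrc1 (GRCm38 chromosome 9, 108936633 to 108949623, plus strand) stood at 80.4, 63.34, 62.22, 74.83, 67.6 and 74.81 TPM in mice 678, 687, 688, 698, 700 and 703. Uqcrc2 (chromosome 7, 120635176 to 120659524, plus strand) stood at 50.71, 46.97, 47.75, 48.24, 43.15 and 58.0 TPM in the same order of mice. Its 1.34-fold range in TPM shrank to 1.07-fold after rescaling, the narrowest of the 10 genes. Mouse 703 was the highest in both of these scales, but mouse 678 was in counts scaled between libraries. Uqcrc1 kept a 1.21-fold range after rescaling. The ratio of Uqcrc1 to Uqcrc2 within a library ran, in TPM, from 1.29 in mouse 703 to 1.59 in mouse 678. Uqcrc2 overlaps Pdzd9 on the other strand.

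Cyc1 and Uqcrfs1 encode the electron-carrying nuclear subunits, cytochrome c1 and the Rieske iron-sulfur protein. Cyc1 (chromosome 15, 76343523 to 76346260, plus strand) was at 60.67, 52.16, 44.95, 55.33, 49.42 and 63.0 TPM in mice 678, 687, 688, 698, 700 and 703. Uqcrfs1 (chromosome 13, 30540308 to 30545362, minus strand) was at 35.07, 32.72, 30.09, 38.18, 30.21 and 38.68 TPM. Both were lowest in mouse 688 and highest in mouse 703 in TPM. After rescaling both remained lowest in mouse 688, while Cyc1 was highest in mouse 678 at 232.6 and Uqcrfs1 in mouse 698 at 149.6 rescaled TPM. Cyc1 exceeded Uqcrfs1 in every library, by 1.45-fold to 1.73-fold. The mitochondrial gene mt-Cytb, for cytochrome b, was far more abundant, at 3793, 4875, 4411, 3425, 3755 and 5147 TPM. It stood 61.9-fold to 98.1-fold above Cyc1, and its lowest library was mouse 698, not mouse 688.

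Uqcrh encodes the acidic hinge protein between cytochrome c1 and cytochrome c, and it spread most of the 10 genes. Uqcrh (chromosome 4, 116066965 to 116075071, minus strand) was at 143.7, 127.9, 78.99, 100.6, 116.0 and 95.71 TPM in mice 678, 687, 688, 698, 700 and 703. It was highest in mouse 678 and lowest in mouse 688, 1.82-fold apart (95% counting interval 1.70 to 1.95). The range stayed between 1.70-fold and 1.86-fold in the other scalings. Counting intervals cover sampling of reads only, taken from the gene's total counts. The highest and lowest libraries were picked by their values. The gene overlaps the processed pseudogene Gm12854 on the other strand.

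Uqcr11 encodes the smallest subunit and had the narrowest range in TPM. Uqcr11 (chromosome 10, 80402997 to 80406830, minus strand) was at 124.6, 123.9, 115.3, 127.4, 119.2 and 136.1 TPM, 1.18-fold from lowest to highest (95% counting interval 1.09 to 1.27). Uqcrh was therefore above Uqcr11 in mice 678 and 687, at 1.15-fold and 1.03-fold, and below it in the other 4 libraries, down to 0.685-fold in mouse 688.

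Uqcr10, Uqcrq and Uqcrb encode further small subunits that surround the catalytic core. Uqcr10 (chromosome 11, 4701973 to 4704342, minus strand) was at 133.8, 128.1, 97.1, 114.1, 122.5 and 111.2 TPM. Uqcrq (chromosome 11, 53427922 to 53430831, minus strand) was at 123.2, 116.0, 88.54, 107.2, 100.8 and 109.3 TPM. For both, mouse 678 was highest and mouse 688 lowest in TPM, 1.38-fold and 1.39-fold apart. After rescaling this held for Uqcrq only, and Uqcr10 was highest in mouse 700 at 540.0 and lowest in mouse 703 at 385.6. Uqcrb (chromosome 13, 66900617 to 66905378, minus strand) was at 57.53, 59.88, 46.33, 41.69, 44.76 and 50.59 TPM. Its highest level was in mouse 687 and its lowest in mouse 698, also after rescaling. Uqcrb had the fewest counts of the 10 genes, 542 in mouse 698, where a 95% Poisson interval runs from 497.3 to 589.6. It overlaps Gm10767 on the other strand. The strand setting of the authors' counting is not stated, and without strand the reads of overlapping genes cannot be told apart.

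Cycs (chromosome 6, 50562563 to 50566538, minus strand) was at 38.92, 36.71, 34.71, 30.72, 33.72 and 37.94 TPM, highest in mouse 678 and lowest in mouse 698. Its range was 1.27-fold (95% counting interval 1.19 to 1.35). That interval leaves out that its TPM is divided between transcripts of unlike length, so it can be too narrow. The range was 1.404-fold in CPM (counts relative to the library total) scaled by TMM (trimmed mean of M values, edgeR's library scaling), where mouse 687 was the highest at 67.73. Cyct, the testis form of cytochrome c, was listed at 0 in all 6 libraries. Hccs, the enzyme that attaches haem to cytochromes c and c1, ran from 3.85 to 5.59 TPM, and the intermembrane import factors Chchd4 and Gfer from 4.15 to 5.35 and from 3.83 to 4.88 TPM. Of the apoptotic partners, Bax ran from 14.95 to 17.72 TPM, Bak1 from 3.9 to 4.91, Casp9 from 4.67 to 6.39 and Apaf1 from 1.29 to 2.98 TPM.

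Mouse 688 held the lowest TPM of 7 of the 10 genes, where 13.5% of all 15013 detected genes were lowest in that library. After rescaling it was 5 of 10, against 10.9% of all genes, and in CPM scaled by TMM 8 of 10, against 15.3%. Summed TPM of Complex I (1663), II (176.2), IV (1836), V (1866) and the assembly genes (113.0) was also lowest in mouse 688. In TPM, Complex I and Complex V were highest in mouse 678, Complex II and Complex IV in mouse 703, and the assembly genes in mouse 687. After rescaling, Complexes I, II, IV and V remained lowest in mouse 688, but the assembly genes were lowest in mouse 703 (443.3). The highest library was then mouse 678 for Complex I, mouse 687 for Complex IV, and mouse 700 for Complex II, Complex V and the assembly genes. Mouse 678 held the highest TPM of 5 genes, against 15.0% of all genes, and mouse 703 of 4 genes, against 53.0%. After rescaling these counts were 4 genes (11.9% of all genes) and 1 gene (20.6%). In TPM, Uqcrb, Uqcrc2 and Cycs were not lowest in mouse 688, and after rescaling Uqcr10 and Uqcr11 were not either. In no gene did 1 library lie far from the other 5 by Dixon's ratio at its 95% limit, a criterion that 7.04% of all genes met in TPM.

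**Figure D2:**
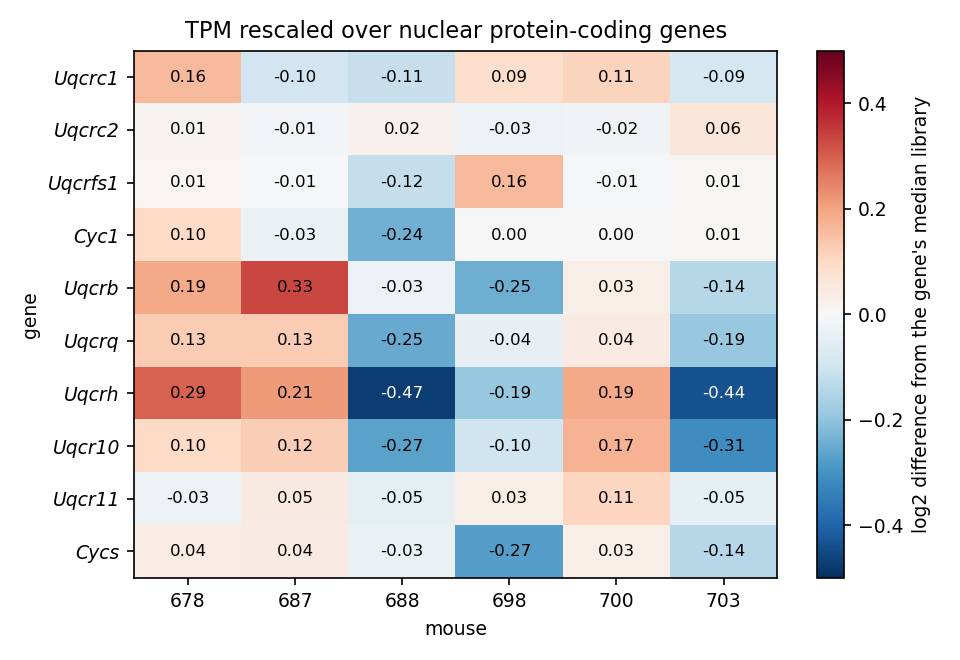
Log2 difference of each gene (rows) in each mouse (columns) from that gene's median library, in TPM rescaled over nuclear protein-coding genes, red above and blue below. Uqcrh spans -0.47 in mouse 688 to 0.29 in mouse 678, while Uqcrc2 stays between -0.03 and 0.06.

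Uqcrh was the only one of the 10 genes among the most variable of all genes, and whether the family varied more than genes of like level depended on the scale. Variability was the SD of log2(CPM + 1) among 6 libraries, less the running median SD of genes of like mean, and the top 5.0% of all detected genes were called most variable. Of the 10 genes, 1 was called, Uqcrh, with a value of 0.27 at percentile 97.1. Uqcr10 and Uqcrb followed at percentiles 91.6 and 90.1, and Uqcrc2 was at percentile 8.69. The median of the 10 genes was 0.05, with 7 of them above 0, where the centring places the middle of all genes close to 0. It was 0.09 over 37 Complex I genes, of which 6 were called, 0.08 over 11 Complex IV genes, of which 0 were called, and 0.10 over 17 Complex V genes, of which 1 was called. Lower medians than that of the 10 genes were those of 4 Complex II genes, at 0.017, and 6 assembly genes, at 0.007, with 0 called in either list. Of 77 ribosomal protein genes, matched by symbol, 75 were called, with a median of 0.54. On log2(TPM + 1), 0 of the 10 genes were called, with Uqcrh at percentile 93.5, 3 of 10 were above 0 and their median was -0.02. The medians of Complex II, Complex IV and Complex V were then -0.05, -0.03 and -0.02. That of Complex I was 0.0019 and that of the assembly genes -0.0045, and 1 Complex I gene and 70 ribosomal protein genes were called.

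**Figure D3:**
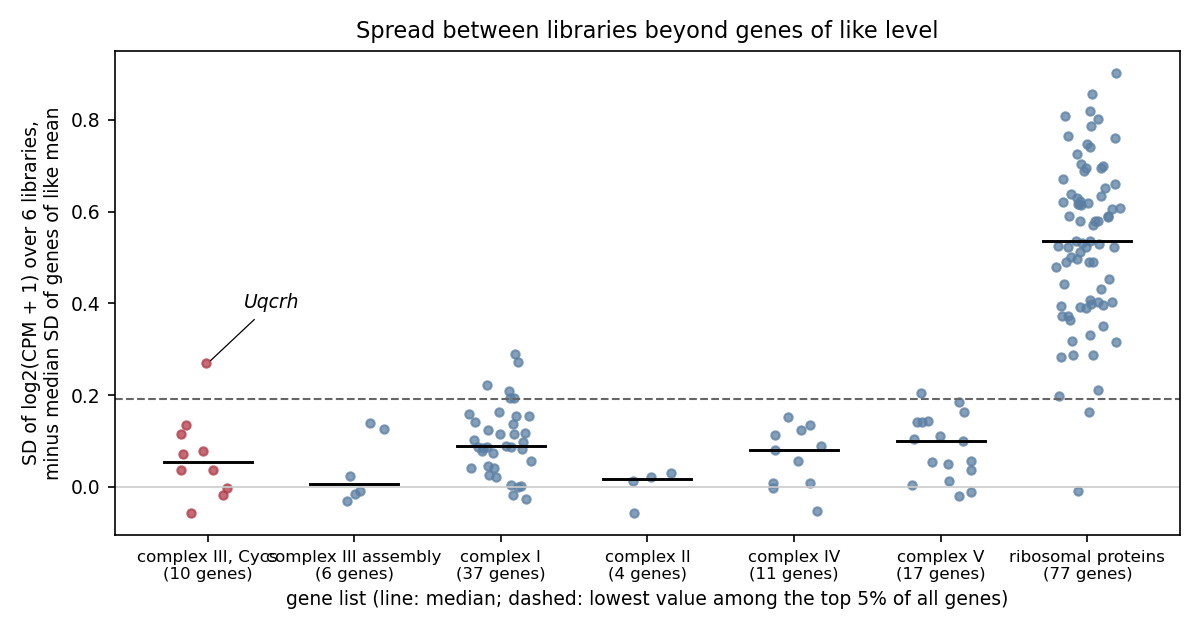
SD of log2(CPM + 1) over 6 libraries beyond genes of like mean, 1 point per gene, by gene list, with black lines at medians and a dashed line at the lowest value among the top 5% of all genes. Uqcrh at 0.27 is the only red point above the dashed line, and 75 of 77 ribosomal protein genes lie above it.

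Subunits of the complex differ in transcript length. The main transcripts of the 5 small subunit genes measure 405 to 547 bases, and those of Uqcrc1, Uqcrc2, Uqcrfs1 and Cyc1 measure 1363 to 1896 bases. Summed over the small subunits, rescaled TPM ran from 1744 in mouse 703 to 2263 in mouse 687, 1.30-fold. The core subunits ran over 1.12-fold and the redox subunits over 1.19-fold. Uqcr11 alone, also a small subunit gene, had a rescaled range of 1.11-fold. In TPM the small subunits (1.37-fold) and redox subunits (1.36-fold) hardly differed. Across the 428 detected nuclear protein-coding genes with a main transcript of at most 600 bases, the median range was 1.46-fold in rescaled TPM. It was 1.33-fold over detected nuclear protein-coding genes of any length, 1.36-fold over all detected genes and 1.25-fold over the 10 genes. In CPM scaled by TMM the genes with short transcripts lay at 1.42-fold. There the 10 genes lay at 1.33-fold, all detected genes at 1.31-fold and detected nuclear protein-coding genes at 1.28-fold. The order of the 10 genes and either background thus turned. Whether transcript length has a part in the spread of Uqcrh was not tested.

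Cyc1 was split between annotated isoforms, and those not annotated as protein-coding spread more between libraries than the protein-coding ones. The protein-coding isoforms held 32.69, 31.09, 30.7, 30.06, 32.6 and 30.78 TPM in mice 678, 687, 688, 698, 700 and 703, a 1.09-fold range. The other isoforms of Cyc1 held 27.98, 21.07, 14.25, 25.27, 16.82 and 32.22 TPM, a 2.26-fold range. They were lowest in mouse 688 and highest in mouse 703, as the gene was. After rescaling, the protein-coding isoforms of Cyc1 ran from 106.8 in mouse 703 to 143.7 in mouse 700, 1.35-fold, and the others from 58.38 in mouse 688 to 111.8 in mouse 703, 1.91-fold, so the narrow range of the protein-coding part held in deposited TPM only. The largest of them is a processed transcript of 563 bases that took 19.3% to 33.7% of the gene's TPM. RSEM, the program that made the values, divides reads between overlapping isoforms by a model, and the error of that division is not known here.

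Cycs showed the opposite layout. A 607-base transcript annotated as retained intron held 47.0% to 57.5% of its TPM, and the 3123-base coding transcript held 42.5% to 53.0%. The coding transcript was at 16.55, 19.47, 15.09, 14.2, 14.67 and 17.1 TPM and the retained-intron transcript at 22.37, 17.24, 19.62, 16.52, 19.05 and 20.84 TPM. Mouse 687 was the only library in which the coding transcript was the larger. Uqcrq used a 405-base coding transcript for 68.6% to 77.0% of its TPM, and the main transcripts of Uqcrc1, Uqcrc2, Uqcrb, Uqcrh, Uqcr10 and Uqcr11 held at least 88.0% in every library.

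**Figure D4:**
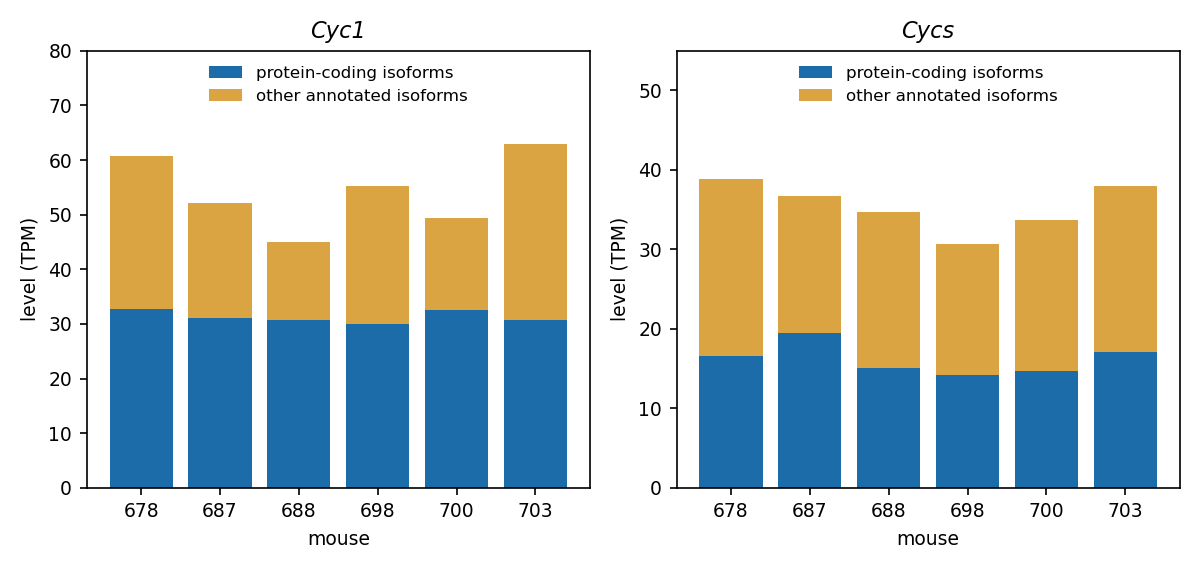
TPM of Cyc1 and Cycs in each mouse, stacked as protein-coding isoforms (blue) and other annotated isoforms (yellow), linear axes from 0. In TPM the blue part of Cyc1 lies between 30.06 and 32.69 (a 1.35-fold range after rescaling) while the yellow part runs from 14.25 to 32.22 (1.91-fold after rescaling), and both parts of Cycs vary by a similar factor, 1.37-fold and 1.35-fold.

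Cycs is also the member with a near-identical expressed copy. Gm10053 on chromosome 19, annotated as protein-coding, is identical to the 607-base Cycs transcript over 327 aligned bases and matches the coding Cycs transcript at 99.9% over 946 bases. Its expected counts were 200.1 to 373.6 per library. Transcripts of other genes at 90% identity or more over at least 50% of the 607-base transcript held 10.5% to 13.8% of the counts of Cycs and these transcripts together, with a median of 11.4%. These include a transcript of Dennd5b, a gene of another family that matches in the reverse direction, with 8.09 to 41.31 counts. Without it the share was 9.37% to 13.2%, with a median of 10.9%. The division of reads between Cycs and Gm10053 is therefore uncertain. For Uqcrb the same rule found 4 copies with 6.01 to 18.0 counts per library, at most 1.94% of the combined counts. Uqcrq had 1 such copy, without a count, and the remaining members had 0. This rule misses copies shorter than its overlap limit. At 80% identity, with the overlap measured on the copy, Uqcrh had 5 copies, Uqcr11 had 3, and Uqcr10 and Uqcrc1 had 1 each. The copies of each of these genes held at most 2.0 counts per library.

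Larp1 binds mRNAs with a TOP motif, a C at the first base followed by a run of pyrimidines, so the annotated starts of the 10 genes were read in GENCODE M21. The first 24 bases are shown for Uqcrfs1, the only gene whose main transcript carries the motif (C and at least 4 pyrimidines, in capitals), for Uqcrh and Cyc1, whose main transcripts lack it, and for their minor isoforms, which have it.
Uqcrfs1, main transcript: CCTTTCCggcgtcgcgctgacgtc
Uqcrh, main transcript: aggtcgccggatatccgtcgagtg
Uqcrh, 579-base processed transcript: CTTCTTaaacctgaagtggagtac
Cyc1, main transcript: aggggccgacgggaacggcggccg
Cyc1, 563-base processed transcript: CTCTCCTCCTTggaccacaccagc
The Uqcrfs1 transcript starts at position 30545362 of chromosome 13, minus strand, with C and 6 pyrimidines. The main Uqcrh transcript starts at 116075071 on chromosome 4 and the minor one at 116075034, both on the minus strand. The main Cyc1 transcript starts at 76343523 on chromosome 15, plus strand, and the minor one inside the gene at 76344476. The count was 1 of 10 genes, against 2.36% of 13625 detected nuclear protein-coding genes. With any annotated isoform it was 3 of 10, against 10.7%. In main transcripts, a motif beginning within 5 bases of the start was found in 1 of 10, against 10.8%. Asking for at least 6 pyrimidines at the start gave 1 of 10, against 1.19%. Uqcrfs1, with the motif, had a rescaled range of 1.21-fold. The genes without it in their main transcript had ranges from 1.07-fold (Uqcrc2) to 1.70-fold (Uqcrh). Whether the motif has a part in these ranges was not tested. Annotated starts were not checked against mapped cap sites.

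Nuclear genes of the respiratory chain are known targets of NRF1 and of GABP, whose DNA-binding subunit is Gabpa. RefSeq promoter windows (GRCm38.p6, 250 bases before to 50 after the annotated start) were matched by symbol for 6 of the 10 genes, Cycs, Uqcr10, Uqcr11, Uqcrc1, Uqcrfs1 and Uqcrh. These motifs were searched on both strands, GCGCANGCG for NRF1 and CCGGAAGT for GABP, the latter chosen after the values were seen. The windows that hold a match are printed except where only a shorter NRF1 core was found, with matches in capitals.
Cycs, chr6:50566520-50566819, minus strand: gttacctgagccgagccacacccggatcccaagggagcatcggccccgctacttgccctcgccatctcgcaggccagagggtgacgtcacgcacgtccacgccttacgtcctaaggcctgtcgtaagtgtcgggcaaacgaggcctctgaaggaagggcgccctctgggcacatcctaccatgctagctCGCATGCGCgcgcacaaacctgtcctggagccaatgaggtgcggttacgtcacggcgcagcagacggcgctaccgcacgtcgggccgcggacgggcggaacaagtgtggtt
Uqcr11, chr10:80406772-80407071, minus strand: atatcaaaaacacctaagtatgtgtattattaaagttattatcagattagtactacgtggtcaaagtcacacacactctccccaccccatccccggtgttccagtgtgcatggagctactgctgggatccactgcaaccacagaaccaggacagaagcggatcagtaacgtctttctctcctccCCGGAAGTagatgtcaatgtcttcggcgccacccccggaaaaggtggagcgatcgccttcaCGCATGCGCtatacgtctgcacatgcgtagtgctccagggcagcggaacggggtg
Uqcrc1, chr9:108936398-108936697, plus strand: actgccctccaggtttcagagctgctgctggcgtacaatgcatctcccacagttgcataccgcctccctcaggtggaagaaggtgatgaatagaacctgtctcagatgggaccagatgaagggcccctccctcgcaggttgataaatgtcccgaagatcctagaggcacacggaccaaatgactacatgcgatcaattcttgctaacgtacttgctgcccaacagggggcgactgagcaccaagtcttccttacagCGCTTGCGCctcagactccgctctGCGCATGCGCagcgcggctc
Uqcrh, chr4:116075021-116075320, minus strand: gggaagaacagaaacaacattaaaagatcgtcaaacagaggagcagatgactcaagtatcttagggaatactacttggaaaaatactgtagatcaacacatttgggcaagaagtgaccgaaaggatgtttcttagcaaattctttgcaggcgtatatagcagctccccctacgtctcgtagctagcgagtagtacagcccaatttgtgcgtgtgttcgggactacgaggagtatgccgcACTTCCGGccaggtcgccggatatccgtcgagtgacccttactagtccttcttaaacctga
The NRF1 motif was found in 3 of 6 windows, against 6.25% of 32851 promoters. It begins at -61 in Cycs, at -5 in Uqcr11, and at +7 and +31 in Uqcrc1, counted from the RefSeq start as +1. The last of these reads as a match on both strands, with overlapping letters. The GABP motif was found in 2 of 6 windows, Uqcr11 at -66 and Uqcrh at -11, against 3.89% of all promoters. These matches describe letters only. Nrf1 itself was at 4.27 to 5.4 TPM and Gabpa at 3.06 to 4.03 TPM over the 6 libraries. The coactivator gene Ppargc1a ran from 9.81 to 12.42 TPM, Ppargc1b from 3.91 to 6.97 and the nuclear receptor gene Esrra from 11.24 to 16.74 TPM.

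The assembly factors of Complex III were expressed below its subunits, apart from Uqcc2. Uqcc2, which with Uqcc1 stabilises newly made cytochrome b, was at 69.91, 72.77, 52.58, 62.72, 71.79 and 63.28 TPM in mice 678, 687, 688, 698, 700 and 703. It was lowest in mouse 688. Uqcc1 ran from 20.64 to 24.28 TPM and Uqcc3 from 8.4 to 12.36 TPM. Bcs1l, which inserts the Rieske protein, ran from 4.64 to 5.54 TPM, and Ttc19, which clears its fragments, from 15.29 to 21.18 TPM. Lyrm7, the chaperone of the Rieske protein, had the widest range of these in TPM, from 2.56 in mouse 700 to 5.29 in mouse 703. After rescaling its range was 1.749-fold, still the widest, against 1.662-fold for Uqcc3. In CPM scaled by TMM the range of Lyrm7 was 1.396-fold, narrower than those of Uqcc3 at 1.654-fold and Uqcc2 at 1.578-fold. Of the 6 assembly genes 0 were among the most variable.

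The 5 nuclear genes whose profile over the 6 libraries was nearest to that of summed Complex III were Mrps15, Psmb5, Mrpl51, Psmb6 and Hint1. The measure was the root mean square difference of centred log2 TPM among 5356 genes with a mean of at least 10 TPM, and it ran from 0.0199 for Mrps15 to 0.0317 for Hint1. Mrps15 and Mrpl51 encode mitochondrial ribosomal proteins, Psmb5 and Psmb6 proteasome subunits and Hint1 a nucleotide hydrolase. Mrps15 was at 13.76, 12.94, 10.43, 12.52, 12.02 and 12.57 TPM. Uqcrq, a part of the sum, ranked 7, whereas Uqcrh ranked 2819 although it also enters the sum. With 6 points that share library depth and composition, the likeness is a description.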

How the data were processed

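RNA was sequenced from mouse cortex, and each of 6 files holds 1 numbered mouse. Per the methods and the submitters' processing notes, the authors used cutadapt for trimming, STAR for alignment (mm10) and RSEM for quantification, with versions not stated. The methods name posterior cortex, RNEasy columns and rRNA depletion, whereas the labels name TRIzol. The authors deposited expected counts per transcript, without normalization, and TPM scaled over all 142351 listed transcripts. A further 18 value columns were not used. Transcript identifiers were looked up in GENCODE M21 (99.36% were found, 910 were not and held at most 0.2716% of counts), summed per gene and rounded. Totals ran from 34689262 to 44463362, and 15013 genes whose count reached 10 in all libraries were kept. Counts at the lowest library gave 95% Poisson half-widths of 3.26% to 8.51% for the 10 genes. Scaling used edgeR 4.0.16 (TMM) and DESeq2 1.42.0 (size factors) in R 4.3.3, with a pseudocount of 1. Copies were found with blastn 2.17.0+. The variability measure was tested on simulated data. No genotype was assigned and no groups were compared. Dixon's ratio was the only criterion with a critical value. All 10 members were named, as were the assembly and cytochrome c lists, and the 5 genes of like pattern. Members and lists were chosen with earlier results of these data known. The GABP motif, the split into protein-coding and other isoforms, the copy search with the coding Cycs transcript or on the same strand only, and rescaled isoform values were added after seeing the data. Protein sequences were not used here.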

Additional observations from a re-analysis of the deposited data

Results flagged for a closer look

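Dixon's ratio over 6 libraries was computed for 141 sets of values behind the text, and 6 exceeded its 95% critical value for 6 samples. Chance flags about 1 in 20 such sets. In TPM rescaled over nuclear protein-coding genes, the summed redox subunits Cyc1 and Uqcrfs1 were at 307.4 in mouse 688 and between 345.6 and 367.1 in the other libraries (ratio 0.641). The same sum as deposited TPM was not set apart, at a ratio of 0.223. The main Uqcrc2 transcript held 93.2% of the gene's TPM in mouse 698 and 90.5% to 91.2% elsewhere (0.741).

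The 375-base processed transcript of Uqcrq was at 22.39 TPM in mouse 678 and 11.22 to 13.43 TPM in the others (0.802), and its share of the gene was 18.2% there against 10.3% to 12.7% (0.696). The 579-base processed transcript of Uqcrh was at 5.35 TPM in mouse 688 and 7.93 to 9.15 TPM elsewhere (0.679). The retained-intron transcript of Cycs held 47.0% of the gene in mouse 687 and 53.8% to 57.5% in the other libraries (0.648). These shares come from RSEM's division of reads among isoforms, and whether that division has a part in them was not tested.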

How the results depend on the processing

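From lowest to highest library the summed Complex III genes spanned a ratio of 1.324 in TPM, 1.24 in rescaled TPM, 1.271 in CPM scaled by TMM and 1.267 in counts scaled by DESeq2 size factors. Leaving out each library in turn gave 1.167 (without mouse 688) to 1.324. The Cycs ratio, 1.267 in TPM, was 1.404 with TMM and 1.398 with DESeq2 size factors, and 1.154 (without mouse 698) to 1.267 with a library left out. The cause of these shifts was not tested. The number of the 10 genes among the most variable was 1 with TMM and 0 on log2(TPM + 1), where the median of the 10 genes turned from 0.054 to -0.016, and stayed at 1 with each library left out. The called Complex I genes numbered 6 with TMM, 3 with a pseudocount of 0.25 and 1 on log2(TPM + 1). With any annotated isoform, 3 genes had a TOP motif at a start, against 1 for the main isoform. For the other 9 genes, 20 of 27 ratios under another scaling stayed within the counting interval of the TPM ratio. The 3 scalings other than TPM all left Uqcrc2 between 1.065 and 1.069. The median share of counts on transcripts similar to Cycs was 11.4%, 10.8% at 95% identity and 10.9% with same-strand matches only, which drops Dennd5b. With the coding transcript as query it was 11.1%, but under a looser rule, 80% identity with the overlap measured on the copy. At 90% identity with the overlap measured on the Cycs transcript, the coding transcript had 0 copies. The same-strand and coding-transcript settings were chosen after seeing the data, as were the rescaled Cyc1 isoform ranges. These were 1.35 against 1.09 for the protein-coding part and 1.91 against 2.26 for the others. No paired analysis was possible because no library is tied to a labelled replicate or genotype. With 542 to 4741 counts per gene, differences of a few percent between libraries are within counting error.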

Other observations

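Larp1, the gene the study deleted, was at 19.96 TPM in mouse 678, 18.77 in mouse 687, 6.28 in mouse 688, 6.44 in mouse 698, 17.48 in mouse 700 and 7.32 in mouse 703. No library was assigned a genotype from these values.

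The 13 protein-coding genes of the mitochondrial genome summed to 2.988%, 3.958%, 3.413%, 2.68%, 2.856% and 3.937% of TPM in mice 678, 687, 688, 698, 700 and 703, highest in mouse 687 and lowest in mouse 698. Summed Complex III was highest in mouse 678 and lowest in mouse 688.

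The 6 values of a gene were counted as separate clusters if their widest gap on the log2 scale was larger than the spread of each set it divides. In TPM this held for 1 of the 10 genes, against 38.9% of detected genes. It was Uqcrc1, with 62.22, 63.34 and 67.6 TPM in mice 688, 687 and 700 and 74.81, 74.83 and 80.4 TPM in mice 703, 698 and 678. In rescaled TPM it held for 4 of 10, against 41.1%. Uqcrc1 was at 308.3, 257.9, 254.8, 293.2, 298.1 and 259.5 in mice 678, 687, 688, 698, 700 and 703, with 3 values below the gap. Uqcrh, at 550.8, 520.9, 323.5, 394.2, 511.6 and 332.0 in that order, also had 3 below. Cyc1 had 1 below, mouse 688 at 184.1 with the others from 212.4 to 232.6, and Uqcrfs1 had 5 below, with mouse 698 at 149.6 and the others from 123.2 to 134.5. With TMM it held for 6 of 10, against 40.5%.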
